A study of Drosophila melanogaster with 4 samples.

Results

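Regions of H3K4me1 at the centromeric ends of 4 chromosome arms of *Drosophila melanogaster* were followed towards the centromere to find where the mark gave out. A region of the list called for the replicate set belonged to an arm end when its midpoint lay in the 2 Mb nearest the centromere, which was X from 20422828, 2L from 21011545 and 3L from 22543558 to the end of each sequence, and 3R from 1 to 2000000 (FlyBase release 5). These limits held 434 of the 9680 regions of the replicate-set list, with 92 on the X, 93 on 2L, 43 on 3L and 206 on 3R. Chromatin came from nuclei of heads sieved from wild-type Oregon-R flies labelled mixed adult, of unstated sex, raised in population cages, treated with formaldehyde and sonicated, and it was precipitated with the antibody ab8895 (new lot 2). There were 2 ChIP libraries and 2 input libraries of this single condition, and the lists for replicate 1 and replicate 2 were each called against the input of the same number. Whether the libraries represent different fly populations is not stated, so the spread between them may be technical. No expression was measured against which the labelled tissue could be checked.

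H3K4me1 is monomethylation of histone H3 at lysine 4. In flies the methyltransferase Trithorax-related deposits much of it, at enhancers and on the flanks of active promoters. Fly centromeres lie within pericentric heterochromatin, which is rich in satellite repeats and transposons and carries methylated H3K9 bound by the protein HP1a. The assembled arms run from gene-rich euchromatin towards that heterochromatin, so the centromeric end of an arm sequence is where a transition between these kinds of chromatin can be met. Genes that are active within heterochromatin are known in flies.

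Coverage was lower at the centromeric end than over the rest of the arm on the X, 2L and 3L, and higher on 3R. The covered share, the percent of bases lying under called regions, was 7.81 ± 3.89% at the end of the X against 21.0 ± 8.69% of its rest (SD, n = 2 each). On 2L it was 10.6 ± 0.613% at the end and 20.6 ± 0.881% over the rest. On 3L, the emptiest of the 4, it was 4.87 ± 0.673% at the end and 23.2 ± 0.874% over the rest. On 3R it was 29.2 ± 0.854% at the end and 23.7 ± 1.46% over the rest. Shares were taken over all bases of a stretch, including any where reads could not be placed.

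The direction was the same in each replicate on each of the 4 arms. The ratio of the end over the rest was 0.39 in replicate 1 and 0.34 in replicate 2 on the X, 0.48 and 0.55 on 2L, 0.18 and 0.24 on 3L, and 1.21 and 1.27 on 3R. On the X the replicates differed so much in overall level that their SD bars for the end and the rest nearly met, although within either library the end was covered less. No test was made of these differences, because 2 libraries of 1 condition allow none between conditions and regions or windows along an arm are not replicates.

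The shortfall was not shared by the other end of the same arms. At the telomeric end the covered share of 2 Mb was 26.9 ± 11.3% for the X, 27.3 ± 1.64% for 2L and 33.1 ± 3.27% for 3L (SD, n = 2 each), above the rest of the arm in both replicates. On 3R the telomeric 2 Mb were covered to 19.7 ± 1.92%, below both the centromeric end and the rest. When each arm was cut into consecutive 2-Mb stretches from the centromeric end, the first was the least covered of 11 on the X, of 11 on 2L and of 12 on 3L, in all 3 lists. On 3R the first stretch was the second most covered of 13 in all 3 lists. The next 2 Mb outwards had covered shares of 35.8% (X), 32.1% (2L), 29.7% (3L) and 22.9% (3R) in the replicate-set list, so that on 3R it was this second stretch that was sparse.

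**Figure D1:**
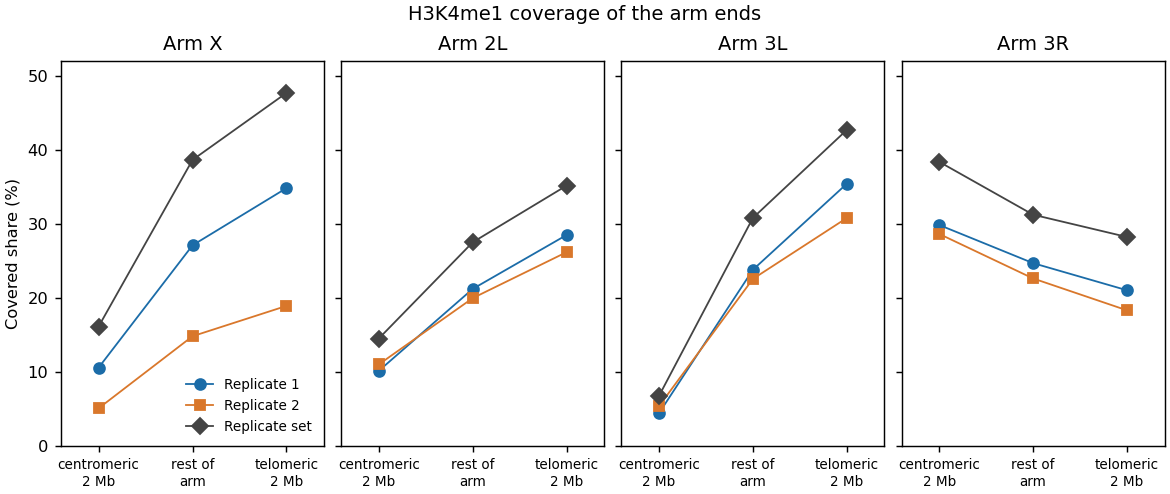
Covered share (percent of bases under H3K4me1 regions) of the centromeric 2 Mb, the rest of the arm and the telomeric 2 Mb, which is part of that rest, on X, 2L, 3L and 3R; each marker is 1 list and lines join the values of the same list. The shares climb from left to right on X, 2L and 3L and decline on 3R, in all 3 lists.

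Windows of 100 kb, counted outwards from the centromeric end, showed how the low coverage was made up. In the replicate-set list 28 of the 60 windows at the ends of X, 2L and 3L were covered under 5%, against 12.2% of all 978 windows of the 4 arms. On 3R it was 2 of 20 windows. In replicate 1 the X, 2L and 3L ends had 37 such windows (20.2% over all windows) and in replicate 2 they had 40 (20.0%). Windows without any called base in either replicate numbered 4 on the X, 3 on 2L, 10 on 3L and 0 on 3R. Over the rest, empty windows were counted for each replicate by itself. In replicates 1 and 2 they numbered 12 and 16 of 204 on the X and 20 and 10 of 210 on 2L. On 3L they numbered 16 and 13 of 225, and on 3R 13 and 12 of 259. Counted alike, the 20 windows of an end held 5 and 8 on the X, 5 and 4 on 2L, 14 and 10 on 3L and 1 and 1 on 3R. The low shares at the ends of X, 2L and 3L thus went with empty or thinly covered windows, and the arms differed in how these were arranged.

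The point where coverage fell was located by the same rule on each arm and list: the step between 2 levels that left the smallest squared error over the 40 windows of the centromeric 4 Mb. A fall was called where the mean of the centromeric side was under 50% of the mean of the other side. The rule finds some step in any profile, and it called falls in part of the simulated arms that had none, so a called fall is a description of the profile. By this rule the X, 2L and 3L had a fall in all 3 lists and 3R had none.

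**Figure D2:**
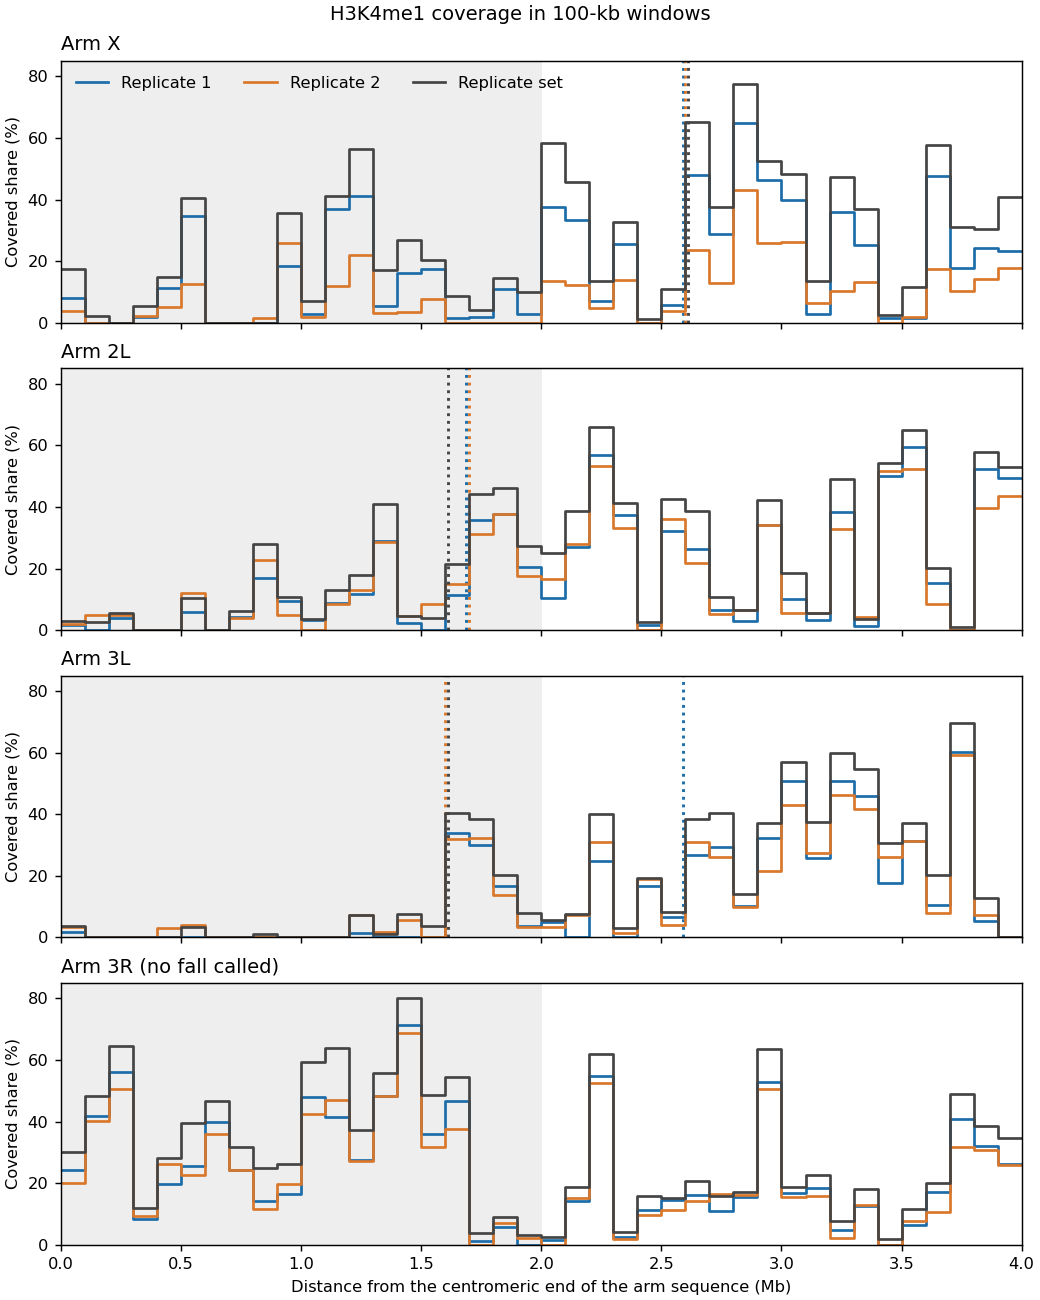
Covered share of 100-kb windows over the centromeric 4 Mb of X, 2L, 3L and 3R, by distance from the centromeric end in Mb, for replicate 1, replicate 2 and the replicate set; grey marks the 2 Mb from which the regions were taken and dotted lines mark the called falls. Falls lie at 2.6 Mb on the X, at 1.6 or 1.7 Mb on 2L and at 1.6 or 2.6 Mb on 3L, and 3R is well covered as far as 1.7 Mb.

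On the X the decline was broken, with islands of covered windows between empty ones. The step lay at 2.6 Mb from the end in each of the 3 lists, at X 19822828, which is outside the 2 Mb that define the end. Replicate 1 was covered to 12.3% on the centromeric side and 29.2% on the other, replicate 2 to 5.75% and 15.9%, and the replicate set to 18.6% and 39.5%. The step took up 21.1% to 24.5% of the variance of the 40 windows, so most of the variation lay within the 2 sides. In the replicate set the last region before the step was X from 19856234 to 19859975 and the first beyond it was X from 19796307 to 19799867.

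The first 100 kb of the X sequence held a patch of called regions, at 8.01% in replicate 1, 3.71% in replicate 2 and 17.4% in the replicate set. The region closest to the end, X from 22415362 to 22417523, had its midpoint 6.39 kb from the end of the sequence and was found in replicate 1 but not in replicate 2. Its neighbour, X from 22409807 to 22414833, was found in both, with 45.0% and 39.1% of its bases covered. The following 300 kb were nearly bare, with at most 2.32% of a window covered in either replicate.

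An island followed between 0.5 and 0.6 Mb, which was covered to 34.8% in replicate 1, 12.5% in replicate 2 and 40.6% in the replicate set. Inside it, X from 21871650 to 21883235 was 11.6 kb wide and found in both replicates. Beyond this island lay the longest gap at the end of the X, from 21503273 to 21846870 or 344 kb in the replicate set. The corresponding gap ran from 21500682 to 21846869 (346 kb) in replicate 1 and from 21524564 to 21862213 (338 kb) in replicate 2, so most of the stretch was empty in both libraries.

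The densest windows of the X end lay 1.1 to 1.3 Mb from the centromeric end in replicate 1 and the replicate set, and at 0.9 to 1.0 Mb in replicate 2 (25.9%). The window from 1.2 to 1.3 Mb was covered to 41.2% in replicate 1, 21.9% in replicate 2 and 56.4% in the replicate set, above the median window of the rest of the X (24.8%, 12.8% and 37.3%). It held the highest-scoring region of the end, X from 21210889 to 21220799, with an authors' score of 1.24. The score is an enrichment value whose scale the files do not state and which can be ranked only within a list, where 98.9% of the replicate-set regions scored lower. The widest region, X from 21239640 to 21255896 (16.3 kb), lay in the neighbouring window, from 1.1 to 1.2 Mb. Replicate 1 covered 97.1% of its bases, but replicate 2 only 26.4%. From 1.6 to 2.0 Mb replicate 2 had no called base at all, whereas replicate 1 had between 1.42% and 10.9% in each window.

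On 2L coverage declined step by step towards the centromere. In steps of 0.5 Mb outwards from the end, coverage was 1.14%, 7.29%, 11.0% and 21.1% in replicate 1, 2.35%, 8.71%, 10.9% and 22.0% in replicate 2, and 2.26%, 11.1%, 16.0% and 28.6% in the replicate set. Each list therefore climbed at every step, and the outermost value was close to the rest of the arm at 21.2%, 20.0% and 27.5%. The number of replicate-set regions climbed likewise, with 7, 21, 25 and 40 regions.

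The step on 2L lay at 1.7 Mb (2L 21311545) in both replicates and at 1.6 Mb (2L 21411545) in the replicate set. Coverage was 6.38% on the centromeric side and 26.5% on the other in replicate 1, 7.84% and 24.6% in replicate 2, and 9.42% and 32.5% in the replicate set. Islands stood on the centromeric side here too, at 0.8 to 0.9 Mb with 27.9% and at 1.3 to 1.4 Mb with 40.8% covered in the replicate set. In the replicate set the regions flanking the step were 2L from 21469214 to 21471072 inside and 2L from 21396031 to 21397978 outside.

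Unlike the X, 2L had no region in its first 47 kb. The region nearest the end was 2L from 22962511 to 22963932, found in replicate 1 only, and its neighbour from 22958704 to 22960337 was found in replicate 2 only. The closest region found in both was 2L from 22737632 to 22739357, at 273 kb, with 82.7% and 89.7% of its bases covered. All 3 had low scores, as at most 9.75% of the list lay below any of them. The longest gap of the 2L end, from 22474634 to 22734748, began just beyond and spanned 260 kb in the replicate set, 260 kb in replicate 1 and 261 kb in replicate 2.

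Both replicate-set regions of the 2L end wider than 10 kb were on the outer side of the step. The widest, 2L from 21237639 to 21254333, spanned 16.7 kb, of which replicate 1 covered 93.9% and replicate 2 covered 89.3%. The other, 2L from 21152769 to 21168937, spanned 16.2 kb and had the highest score among the 2L members found in both replicates, 0.99. A narrow region, 2L from 21474251 to 21476256, scored higher at 1.04 but was found in replicate 2 only.

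The 3L end was almost free of called regions up to 1.6 Mb from the end, where coverage changed sharply from 1 window to the next. Over the inner 1.5 Mb, replicate 1 had 2 regions covering 0.227%, replicate 2 had 13 regions covering 1.70% and the replicate set had 12 regions covering 1.58%. The window from 1.5 to 1.6 Mb was covered to 0%, 0% and 3.58%, and the next, from 1.6 to 1.7 Mb, to 33.9%, 32.1% and 40.3%. Of all bases covered in the 2 Mb, 97.9% in replicate 1, 90.2% in replicate 2 and 94.2% in the replicate set lay in the outer 1 Mb.

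The step on 3L was put at 1.6 Mb (3L 22943558) in replicate 2 and the replicate set and at 2.6 Mb (3L 21943558) in replicate 1. The replicate set was covered to 1.71% on the centromeric side and 29.2% on the other, and the step took up 44.5% of the window variance, the most of the 4 arms. The first region beyond it was 3L from 22940158 to 22943469, found in both replicates, which ended within 0.1 kb of the step. A second stretch of lower coverage lay between these 2 positions. Between 2.0 and 2.5 Mb coverage dropped again to 9.28% in replicate 1 and 12.4% in replicate 2, against 16.9% and 16.3% between 1.5 and 2.0 Mb. This stretch was uneven. Its window from 2.2 to 2.3 Mb was covered to 24.8% in replicate 1, 31.1% in replicate 2 and 40.1% in the replicate set. The windows from 1.6 to 1.8 Mb formed an island beyond the nearly bare end, with this unevenly covered stretch farther out.

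That island carried the strongest region of the 3L end. The region 3L from 22827322 to 22837805 was 10.5 kb wide and had a score above those of 99.5% of the replicate-set list, and replicate 1 covered 93.3% and replicate 2 88.7% of its bases. It was both the widest and the highest-scoring member on 3L. Among the 12 members of the inner 1.5 Mb of 3L, only the region closest to the end was found in both replicates. This region, 3L from 24532230 to 24535769, lay 9.56 kb from the end of the sequence, with 51.8% of it covered by replicate 1 and 51.5% by replicate 2. From there the replicate set had no region for 507 kb, from 24025049 to 24532229, and replicate 1 had none for 1202 kb, from 23330591 to 24532185. Replicate 2 had 2 regions within that stretch between 0.4 and 0.5 Mb, covering 3.09% of the window, and its longest gap lay farther out, from 23336242 to 23987795 (652 kb).

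The members of the inner 1.5 Mb of 3L were narrow, and most scored low. Of the 12, 9 were found in replicate 2 only, 1 in replicate 1 only and 1 in neither, in addition to the 1 found in both, and their median width was 1791 bp. A single member scored above the median of the whole list, 3L from 23987820 to 23988996, with 1.17 and in replicate 2 only. Another, 3L from 23331051 to 23332560, had the lowest score of all 9680 regions, 0.0082, and was named after its value was seen. In replicate 2 itself, 1 of its 13 regions here overlapped replicate 1, against 80.5% over that whole list. Replicate 1 had only 2 regions here that could be overlapped.

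On 3R the called regions reached the end of the assembled sequence at about the density of the rest of the arm. Every 100-kb window from the end to 1.7 Mb had called regions in both replicates, the lowest value being 8.25% in replicate 1 and 9.18% in replicate 2, both at 0.3 to 0.4 Mb, and the mean over these 17 windows was 34.7% in replicate 1, 33.2% in replicate 2 and 44.2% in the replicate set. The first 100 kb were covered to 24.2%, 20.0% and 30.1%, against medians of 22.9%, 21.6% and 31.0% for the windows of the rest of the arm. The region closest to the end, 3R from 7853 to 9080, was found in neither replicate, and the next, 3R from 11717 to 14351, was found in both. At 52.5 kb lay a region of 11.4 kb, 3R from 46812 to 58199, of which replicate 1 covered 95.2% and replicate 2 covered 72.2%.

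The peak of the 3R end was the window from 1.4 to 1.5 Mb, covered to 71.5% in replicate 1, 68.7% in replicate 2 and 80.0% in the replicate set. This was the most covered 100-kb window of all 4 arm ends in each list. The widest member of 3R, from 1386005 to 1402264 (16.3 kb), lay at its edge and was covered to 99.2% and 91.8% by replicates 1 and 2. The highest score belonged to 3R from 675099 to 684151, with 1.52, which exceeded 99.7% of the list and was covered to 96.0% and 98.7% by the replicates.

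Within the 4 Mb searched, the step on 3R ran the other way from that on the other arms and lay 1.7 Mb from the end (3R 1700000) in all 3 lists. With 6 Mb searched its place and direction turned: it lay at 5.2 Mb in replicate 1 and the replicate set and at 4.8 Mb in replicate 2, with the centromeric side lower, though not by enough to be called a fall. The window before the step at 1.7 Mb was covered to 46.5% in replicate 1 and 37.7% in replicate 2, and the window after it to 1.34% and 0%. Beyond the step at 1.7 Mb, up to 4 Mb, coverage averaged 16.4%, 15.2% and 20.6% in replicate 1, replicate 2 and the replicate set. Replicate 2 had no region from 1687090 to 1819775 (133 kb), and the longest gap of replicate 1 within the 3R end lay at nearly the same place, from 1722225 to 1827634 (105 kb). The low window after 1.7 Mb and the well-covered end before it were thus present in both libraries.

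The separately listed heterochromatic sequences of the same arms were covered less than the corresponding 2-Mb ends in all but 1 of 12 comparisons. On the X and 3L this did not hold for the innermost 0.5 Mb. In the replicate set the covered share was 1.97% of 2LHet (5 regions), 1.30% of 3LHet (11 regions) and 0.636% of 3RHet (10 regions), below the 14.5%, 6.73% and 38.4% of the arm ends. XHet was covered to 11.4% by 8 regions, against 16.1% of the X end. The exception was replicate 2 on the X, where XHet was covered to 6.64% and the X end to 5.06%. The innermost 0.5 Mb of 2L (2.26%) came near 2LHet in the replicate set, and the innermost 0.5 Mb of 3R (36.7%) did not come near 3RHet. On 3L the innermost 0.5 Mb was covered less than 3LHet in all 3 lists. It was 0.376% against 0.750% in replicate 1, 1.27% against 1.70% in replicate 2 and 0.708% against 1.30% in the replicate set. On the X the innermost 0.5 Mb was covered less than XHet in all 3 lists, with 4.24% against 8.80% in replicate 1, 2.20% against 6.64% in replicate 2 and 7.96% against 11.4% in the replicate set.

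**Figure D3:**
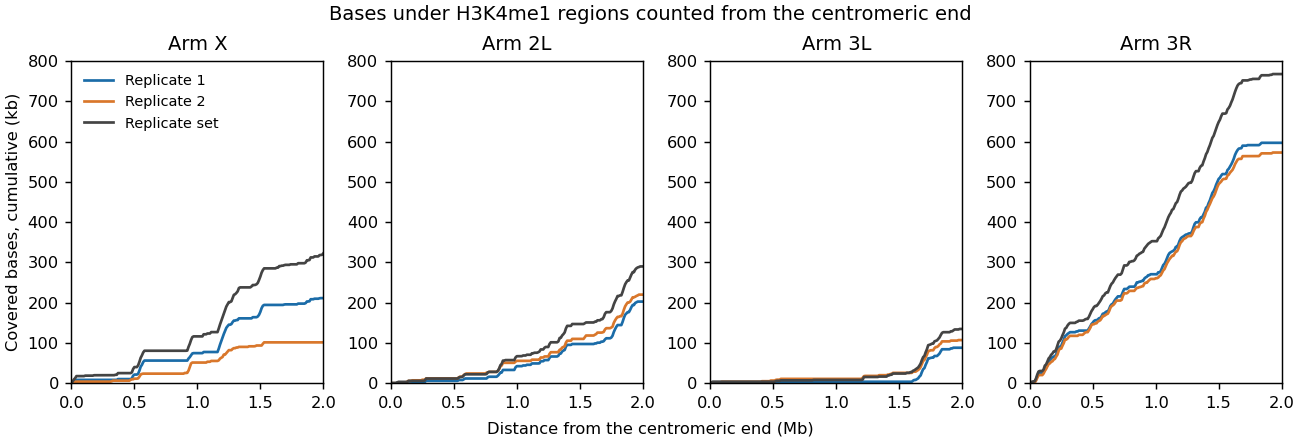
Bases under H3K4me1 regions (kb) summed from the centromeric end outwards over 2 Mb of X, 2L, 3L and 3R, for the 3 lists. The curve of 3R rises from the start and flattens at 1.7 Mb, that of 3L stays near 0 as far as 1.6 Mb, and those of X and 2L rise in steps, the X with a wide gap between the replicates.

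Counted as bases, the 3R end held more mark than the other 3 ends together. It had 597 kb under regions in replicate 1, 573 kb in replicate 2 and 768 kb in the replicate set. The X end had 211, 101 and 322 kb, the 2L end 203, 220 and 290 kb, and the 3L end 87.9, 107 and 135 kb in replicate 1, replicate 2 and the replicate set. In the replicate set, 50% of the covered bases had been passed by 1197 kb on the X, 1437 kb on 2L, 1700 kb on 3L and 1067 kb on 3R. Where bases are spread evenly this point lies at 1000 kb, so in that list the 3R value was nearest to even and the 3L value farthest from it. In replicate 2 the X value (958 kb) was nearer to even than that of 3R (1076 kb).

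Long gaps were more frequent at the ends of X, 2L and 3L than at that of 3R. Gaps of over 50 kb made up 11 of 91 gaps at the X end, 9 of 92 at the 2L end, 7 of 42 at the 3L end and 2 of 205 at the 3R end in the replicate-set list, against 3.44% of all 9667 gaps. These few gaps took up most of the sequence at 3 ends: 1194 kb on the X, 1026 kb on 2L and 1498 kb on 3L, but 130 kb on 3R. The median gap was not wider at the ends of X, 2L and 3R than over their rest in the replicate set. It was 1.38 kb at the X end and 1.86 kb over the rest of the X, 2.16 and 2.81 kb on 2L, and 1.93 and 2.88 kb on 3R. On 3L it was wider, at 9.39 kb at the end and 2.91 kb over the rest. In replicate 2 the median gap was wider at the ends of the X (9.73 against 4.09 kb) and 2L (5.13 against 3.07 kb) as well. In replicate 1 the end and the rest hardly differed on the X (2.16 against 2.13 kb) and 2L (3.07 against 3.00 kb).

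The regions themselves were somewhat narrower at the ends than over the rest of the arms. The median width of the members was 2477 bp at the X end against 2766 bp over its rest, 2273 against 2655 bp on 2L, 2355 against 2643 bp on 3L and 2668 against 2782 bp on 3R. Replicate 1 had the same direction on all 4 arms (2265 against 2838 bp, 2398 against 2821 bp, 2652 against 2829 bp and 2663 against 2909 bp). In replicate 2 the ends of 2L (2052 against 2289 bp) and 3L (2143 against 2377 bp) were narrower, while the X (1991 against 2000 bp) and 3R (2356 against 2355 bp) hardly differed. The quartiles overlapped widely in each case, for example 1640 to 3602 bp at the 2L end and 1706 to 4838 bp over the rest of 2L. No test was made over regions.

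In the replicate-set list broad members were found at all 4 ends. Members wider than 10 kb numbered 3 on the X, 2 on 2L, 1 on 3L and 10 on 3R, against 6.73% of the whole list. As shares, that was 16 of the 434 members and 10 of the 206 on 3R, and the rest of the 4 arms had 496 of 7102. The replicate lists had fewer regions over 10 kb. Replicate 1 had 1 at the X end and 3 at the 3R end, and replicate 2 had 4, all at the 3R end. Neither had any at the ends of 2L and 3L. Each of the 16 members overlapped a region of both replicates by at least 1 bp. The same share among all regions over 10 kb was not counted, so this is not shown to be particular to the ends. Replicate 1 covered between 76.6% and 99.8% of these 16 members, and replicate 2 covered between 72.2% and 100.0% of the 13 on 2L, 3L and 3R. On the X replicate 2 covered 46.1%, 26.4% and 28.6% of the 3.

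Scores placed the members of 2L and 3L low in the replicate-set list, those of 3R near its middle and those of the X above it. For 2L the low placing did not hold in the list of replicate 2, and for 3L it held only in part in that of replicate 1. The high placing of the X end held in neither replicate list. In the replicate-set list 67.4% of the X members scored above the median, against 71.2% over the rest of the X, and 46.1% of those on 3R. For the X end it was 48.5% in replicate 1 and 51.2% in replicate 2, against 69.7% and 62.4% over the rest of the X. The median score was 0.50 at the 2L end and 0.55 over its rest, 0.52 and 0.54 on 3L, 0.64 and 0.67 on the X, and 0.56 and 0.55 on 3R. At the 2L end 26 of 93 members, or 28.0% (exact Clopper-Pearson 95% interval 19.1% to 38.2%), were among the lowest-scoring 10.0% of the list, against 13.3% (11.7% to 15.2%) over the rest of 2L. At the 3L end it was 9 of 43, or 20.9% (10.0% to 36.0%), against 11.2% (9.73% to 12.7%) over its rest, so the intervals overlapped. In replicate 1 it was 3 of 29 at the 3L end, or 10.3% (2.19% to 27.4%), against 12.2% (10.6% to 14.1%) over its rest. In that list 37.9% of the 3L end scored above the median, against 46.2% of its rest. On 3R it was 21 of 206, or 10.2% (6.42% to 15.2%), in the replicate set. In replicate 2, 14.3% (7.35% to 24.1%) of the 77 regions of the 2L end were among the lowest-scoring 10.0% of that list, against 12.0% (10.3% to 13.8%) over the rest of 2L, and 48.1% scored above the list's median, against 45.8% over the rest. In the replicate-set list the highest-scoring 10.0% held 5 of the 92 X members (5.43%), 3 of 93 on 2L (3.23%), 2 of 43 on 3L (4.65%) and 18 of 206 on 3R (8.74%). Over the rest it held 15.1% on the X, 8.34% on 2L, 8.66% on 3L and 9.31% on 3R. Replicate 1 had the same direction on each arm. In replicate 2 the ends of X (18.6% against 9.86% over the rest) and 2L (13.0% against 8.52%) went the other way, and those of 3L (8.11% against 9.44%) and 3R (10.1% against 10.4%) did not. The intervals cover counting error over regions only, and neighbouring regions are not independent.

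**Figure D4:**
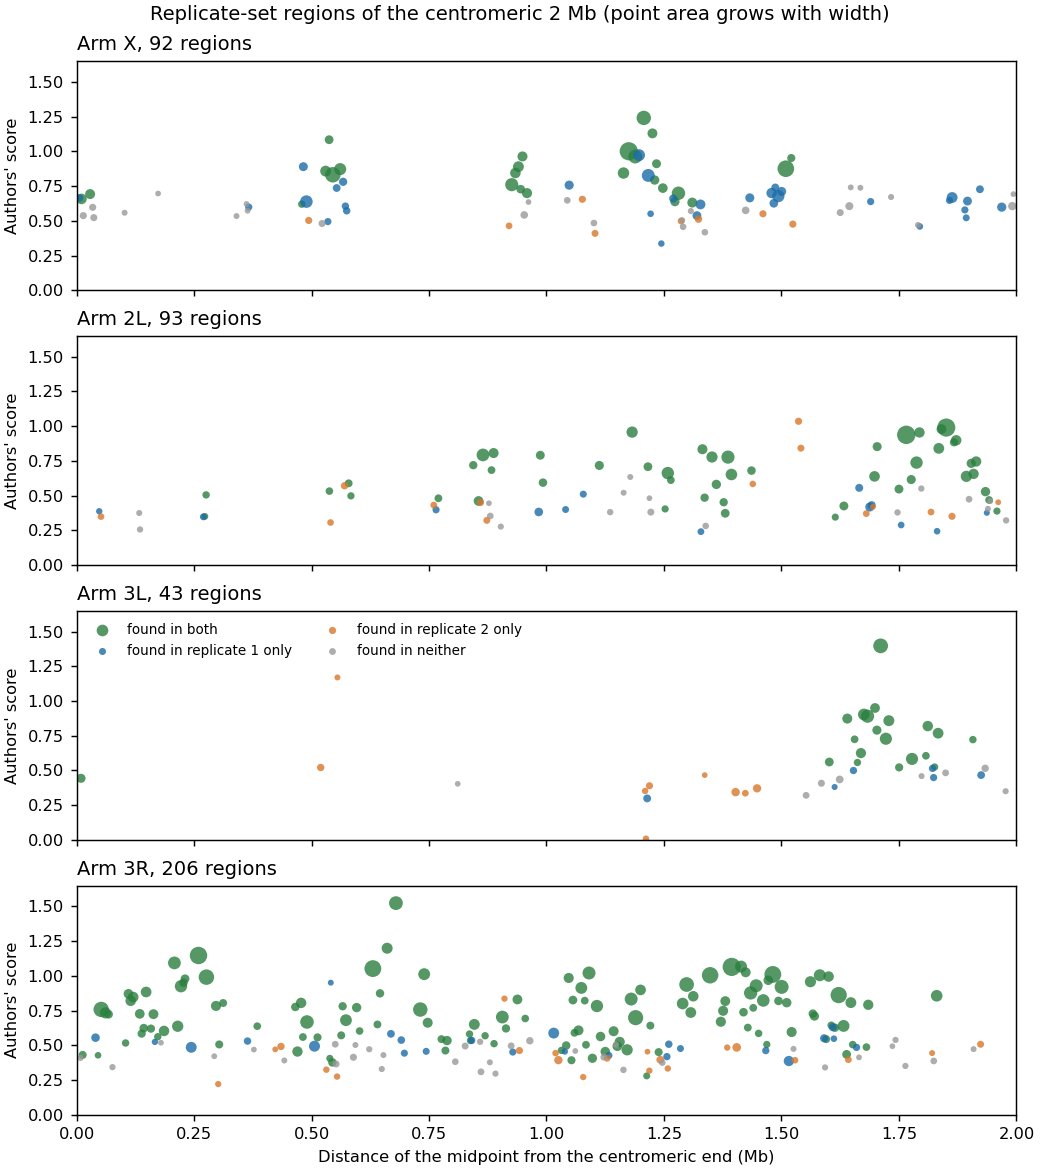
Authors' score of the 434 replicate-set regions of the centromeric 2 Mb of X, 2L, 3L and 3R against the distance of their midpoints from the centromeric end in Mb; point area grows with region width and colour gives the replicate lists in which the region was found. High-scoring, wide regions found in both replicates gather in islands on X, lie mostly beyond 1.6 Mb on 3L, and run along 3R as far as 1.7 Mb.

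Members were found in both replicates least often on the X and most often on 3R. Both replicates had a region overlapping 222 of the 434 members, or 51.2% (46.3% to 55.9%), against 52.7% of the whole list. By arm it was 26 of 92 on the X, or 28.3% (19.4% to 38.6%), 49 of 93 on 2L, or 52.7% (42.1% to 63.1%), 20 of 43 on 3L, or 46.5% (31.2% to 62.3%), and 127 of 206 on 3R, or 61.7% (54.6% to 68.3%). The rest of these arms had 37.7% (35.5% to 39.9%), 56.4% (53.9% to 59.0%), 56.2% (53.9% to 58.6%) and 58.2% (56.0% to 60.4%). The intervals of the end and the rest overlapped on each arm. Members found in neither replicate numbered 85, or 19.6% (16.0% to 23.6%), against 21.0% of the whole list. Their median width was 1335 bp, and that of the members found in both was 4174 bp.

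On 3L agreement between the replicates differed between the sides of the step. On the centromeric side of the replicate-set step, 1 of 14 members or 7.14% (0.181% to 33.9%) was found in both replicates, and 112 of 192 or 58.3% (51.0% to 65.4%) beyond it up to 4 Mb. Their median widths were 1792 and 2482 bp and their median scores 0.38 and 0.56. On the X the corresponding shares were 29.3% (21.9% to 37.6%) of 140 and 41.8% (32.9% to 51.1%) of 122, and on 2L 50.9% (37.1% to 64.6%) of 55 and 58.5% (51.0% to 65.7%) of 183. The side of the step was set by coverage, which itself limits agreement between the replicates. In the inner 1.5 Mb of 3L replicate 1 had only 2 regions, so few members there could be found in both replicates. Narrow regions also overlap another list less often, and the part of width in these shares was not tested.

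Seen from each replicate, the clearest shortfall in regions found again in the other replicate was that of replicate 2 at the 3L end. In replicate 1 the shares were 45.6% (33.5% to 58.1%) at the X end and 59.8% (57.3% to 62.4%) over its rest, 78.9% (67.6% to 87.7%) and 81.5% (79.2% to 83.6%) on 2L, 79.3% (60.3% to 92.0%) and 82.0% (79.9% to 84.0%) on 3L, and 82.9% and 82.2% on 3R, against 77.3% of its whole list. On 2L and 3L the intervals of the end and the rest overlapped widely in replicate 1. In replicate 2 they were 69.8% (53.9% to 82.8%) at the X end and 84.9% (82.8% to 86.8%) over its rest, 71.4% (60.0% to 81.2%) and 79.5% (77.3% to 81.7%) on 2L, 59.5% (42.1% to 75.2%) and 79.7% (77.6% to 81.6%) on 3L, and 81.5% and 82.6% on 3R, against 80.5% of its whole list. The 3L value of replicate 2 rests on 37 regions, 13 of them in the inner 1.5 Mb, where replicate 1 had only 2 regions. The intervals of end and rest did not overlap for replicate 2 on 3L, and those of the X overlapped narrowly in both replicates.

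The replicates differed at the ends in a way that depended on the arm. The covered share of replicate 1 over that of replicate 2 was 2.09 at the X end and 1.83 over the rest of the X. It was 0.92 at the 2L end and 1.06 over its rest, 0.82 at the 3L end and 1.05 over its rest, and 1.04 at the 3R end and 1.09 over its rest. Of these 8 stretches, replicate 2 covered more than replicate 1 at the ends of 2L and 3L only. On 3L the 20 windows were higher in replicate 2 in 7, higher in replicate 1 in 3 and equal, at 0, in 10. On the X they were higher in replicate 1 in 13, in replicate 2 in 3 and equal in 4. The depth of the libraries was unknown, so its part in these differences was not tested.

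Even so the order of the windows was largely shared. Spearman's rho between the replicates' covered shares over the 20 windows of an end was 0.85 on the X, 0.84 on 2L, 0.79 on 3L and 0.97 on 3R. Over the windows of the rest it was 0.94, 0.97, 0.96 and 0.97. These are descriptions across windows, which share neighbours and the sequence beneath them, and the ends of X, 2L and 3L include windows tied at 0.

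The regions on either side of the 2-Mb limit were narrow, and 6 of the 8 were found in neither replicate, against 21.0% of the whole list. The limit is a set distance and 8 regions are few, so this is not shown to be a trait of the limit. On the X the member just inside was from 20428920 to 20429920 and the region just outside from 20406766 to 20408634, with scores of 0.69 and 0.62. On 2L they were from 21032859 to 21034290 and from 20994993 to 20996005, with scores of 0.32 and 0.52. On 3L they were from 22565970 to 22567232 and from 22466845 to 22469048, scoring 0.35 and 0.59, and on 3R from 1922740 to 1924591 and from 2028259 to 2029262, scoring 0.51 and 0.50. No region spanned the limit on any of the 4 arms.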

How the data were processed

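H3K4me1 ChIP with matched input was sequenced from head nuclei in 2 replicates. The submitters' processing notes name Bowtie 0.12.7. The caller, its threshold and how the replicate set was combined are not given in the sources used here. The authors deposited 3 region lists, each region with a score, and 1-based starts and ends on FlyBase release 5, per the file headers. Input libraries entered only through the authors' calls. Depth is unknown, so intervals cover counting error over regions only.

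Arm lengths were read from the headers. Covered share is the percent of bases under regions. Overlap meant at least 1 bp. The step search required at least 2 windows on each side. Named regions were, per arm, those closest to the end, widest, highest-scoring, flanking the step and the 2-Mb limit, and the longest gap; islands and windows were described after their values were seen. Members, lists and rules were chosen with earlier results of these data known. Functions were tested on simulated data. Python 3.11.15, numpy 2.4.6, pandas 2.3.3 and scipy 1.17.1 were used. Alternatives covered score thresholds, joined regions, window size and grid, the stretch searched, the length of the end and overlap. The gene table at hand is of release 6, so no gene is named and no sequence is printed.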

Additional observations from a re-analysis of the deposited data

How the results depend on the processing

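Of 92 alternatives, 57 stayed within the replicate spread, the interval or 1.5 times the main count, 35 moved beyond it, and none turned the direction of a ratio. With 2 replicates, leaving out 1 always stays within their SD, so those alternatives could not move. For the place of the fall on 3L the SD was 0.71 Mb, wide enough to hold every alternative tried. The count of 57 is therefore not a measure of stability. The end-over-rest ratio was 0.37 on the X, 0.51 on 2L, 0.21 on 3L and 1.24 on 3R as the mean of the replicates. With the higher-scoring 50% of each list it was 0.30, 0.45, 0.16 and 1.17, and with the higher-scoring 25% it was 0.30 on the X, 0.40 on 2L and 1.18 on 3R. A 1-Mb end gave 0.32, 0.24, 0.028 and 1.11, and a 3-Mb end gave 0.60, 0.73, 0.36 and 1.09. Regions per Mb gave 0.41 on the X, 0.61 on 2L and 1.30 on 3R, and the replicate set gave 0.42 on the X. Leaving out 1 replicate gave 0.34 to 0.39 on the X, 0.48 to 0.55 on 2L, 0.18 to 0.24 on 3L and 1.21 to 1.27 on 3R.

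The number of arms with a fall in both replicates was 3 under each of the 10 alternatives. The place of the fall moved more. On the X it was 2.6 Mb, but 2.62 Mb with 20-kb windows, 2.55 Mb with the grid shifted by 50 kb (1.15 Mb in the replicate set) and 1.1 Mb at the first pair of windows to reach 50% of the rest-of-arm median. On 2L it was 1.7 Mb, but 1.6 Mb in the replicate set and with 200-kb windows, 1.75 Mb with 50-kb windows and with the shifted grid, 1.71 Mb with 20-kb windows, 1.45 Mb with the higher-scoring 50% or 6 Mb searched, 3.4 Mb with the higher-scoring 25%, and 1.0 Mb at the first such pair. On 3L the mean of 2.1 Mb stands for 1.6 Mb in replicate 2 and 2.6 Mb in replicate 1. Both replicates gave 1.6 Mb with 3 Mb searched, 2.6 Mb with 6 Mb searched and 2.65 Mb with the shifted grid. With the higher-scoring 50% the fall on 3L lay at 2.6 Mb in replicate 1 and the replicate set and at 3.0 Mb in replicate 2. The 3R end had no fall called under any setting, but with 6 Mb searched its step moved to 4.8 or 5.2 Mb and turned direction. The cause of these moves was not tested.

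The share of members found in both replicates was 51.2%, 42.9% when each replicate had to cover 50% of the member, 42.8% in the higher-scoring 50%, 41.7% on X, 2L and 3L only, and 57.3% on 2L, 3L and 3R only. The shifted grid, the replicate-set place of the fall and these arm subsets were added after the data were seen. No paired analysis was possible because the replicate numbers pair ChIP with input, and input has no list used here. End and rest were compared within each library, as ratios with their SD and no test.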
